A study of Mus musculus with 15 samples.

Results

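Cyclic AMP and cyclic GMP are second messengers that carry hormone and neurotransmitter signals inside islet cells. The genes described here make, degrade or read them: the adenylyl and guanylyl cyclases, the cyclic nucleotide phosphodiesterases, the subunits of protein kinase A and protein kinase G, and the exchange factor EPAC. Membership follows gene symbols and uses no signal, although the set was proposed with earlier results of these data known. They are Adcy1 to Adcy10, the phosphodiesterase families Pde1 to Pde11, Prkacb, Prkar1a, Prkar1b, Prkar2a, Prkar2b, Prkg1, Prkg2, Rapgef3 and every gene starting with Gucy. In all, 51 of the 19938 genes measured belong to the set: 10 adenylyl cyclases, 4 soluble and 5 membrane guanylyl cyclases, 24 phosphodiesterases, 1 catalytic and 4 regulatory subunits of protein kinase A, 2 protein kinase G genes and 1 EPAC gene. The catalytic subunit gene Prkaca was read only by a probe cluster shared with another gene and, like the EPAC gene Rapgef4, was not analysed here. Each gene was read from its cluster with the highest mean signal, and Pde4d and Prkg2 were the only 2 members with more than 1 cluster.

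RNA of mouse islet cells was measured on 15 Affymetrix Mouse Gene 1.0 ST arrays, which read transcripts through probes along their length, with 5 arrays per group. Pdx1-deficient cells, labelled PKO and reprogrammed cells, were taken 5 days after tamoxifen, which sets off deletion of Pdx1, a transcription factor that maintains beta cells. The alpha cells, the glucagon-producing cells, carry the genotype label RIP-CreER; Pdx1fl/+, RosaYFP. The beta cells, the insulin-producing cells, carry the label glucagon-Cre; RosaYFP. Both control groups were sorted for YFP from mice 2 months old, and all mice had a mixed background of B6 and BALB/C. The insulin promoter (RIP) usually drives Cre in beta cells and the glucagon promoter in alpha cells, so the genotype labels of the controls run against their titles. Groups here follow the titles, as do the cell-type marker lists given below. The alpha label includes 1 floxed Pdx1 allele. The sources used here do not give the deleted exon, the age and sorting of the Pdx1-deficient cells, or whether the controls received tamoxifen. Nothing in the labels ties the arrays of 1 group to different animals. Each p-value therefore rests on the spread among these arrays, and that spread could be technical.

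Adenylyl cyclases make cAMP when receptors coupled to Gs proteins are engaged, and in beta cells the incretin hormones raise insulin secretion along this route. Cyclic AMP acts through protein kinase A and EPAC, and phosphodiesterases end the signal. Cyclic GMP comes from soluble cyclases that sense nitric oxide and from membrane cyclases that bind peptides, and it acts through protein kinase G, ion channels and some phosphodiesterases.

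Values are log2 signals, as the range of 2.11 to 13.45 shows, and are compared between arrays for 1 gene, never between genes. Pdx1 itself read 9.12, 7.83, 7.68, 6.53 and 7.59 in Pdx1-deficient replicates 1 to 5, 8.15, 7.98, 8.21, 7.70 and 7.27 in alpha and 8.85, 9.33, 9.26, 9.02 and 9.26 in beta arrays. The array labelled Pdx1-deficient replicate 1 thus lay among the beta arrays for Pdx1, and its mean over 9 beta-cell markers, 10.19, lay within the beta range of 10.05 to 10.38, where the other 4 read 8.73 to 9.34. The array labelled alpha replicate 2 read 8.36 over 8 alpha-cell markers, where the 4 remaining alpha arrays read 8.97 to 9.31 and the beta arrays 7.50 to 7.82. On the other list each of these arrays lay with its own group and outside the beta range. Pdx1-deficient replicate 1 read 8.35 over the alpha-cell markers, where its group read 8.17 to 8.41. Alpha replicate 2 read 9.31 over the beta-cell markers, the highest of its group at 8.47 to 9.31. Results that rest on these 2 arrays are also given without them. The 2 arrays were picked on markers in these same data, so every p-value without them is descriptive only. The insulin gene Ins2 and the glucagon gene Gcg, which define the 2 cell types, read 11.90 to 12.12 and 12.35 to 12.79 in Pdx1-deficient, 11.86 to 12.09 and 12.49 to 12.87 in alpha and 11.77 to 11.98 and 12.15 to 12.51 in beta arrays, so neither was low in any array. Of the 9 beta-cell markers, 6 passed the test used below, all lower in alpha than in beta arrays. Of the 8 alpha-cell markers, 5 passed, all higher in alpha arrays, where 4.04% of all genes passed. Both lists thus ran with the titles of the 2 control groups. The array labelled alpha replicate 5 read 11.01 over 12 acinar markers, against 5.73 to 6.99 in all others. Quartiles lay closer together in every Pdx1-deficient and alpha array than in any beta array. Over all genes the 25th percentile was 5.02 to 5.21 in Pdx1-deficient, 5.00 to 5.17 in alpha and 4.97 to 5.01 in beta arrays. The upper quartile was 7.18 to 7.39 in Pdx1-deficient, 7.22 to 7.35 in alpha and 7.39 to 7.49 in beta arrays. These values moved with the groups, and their part in the results was not tested.

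In alpha cells, 3 members were lower and 1 was higher than in beta cells. The lower genes were the cGMP phosphodiesterase Pde5a, the adenylyl cyclase Adcy9 and the cAMP phosphodiesterase Pde8a, with signals 4.80-fold, 1.51-fold and 1.78-fold lower. The higher gene was Prkg1, the cGMP-dependent protein kinase type I, at 1.78-fold. All 4 passed an adjusted p of 0.05 in limma's moderated test, adjusted by Benjamini and Hochberg over all 19938 genes. The 4 calls are 7.84% of the 51 members, where 4.04% of all genes were called. In alpha cells 0.893% of all genes were called higher and 3.15% lower, a split of 22.1% higher that became 10.4% when each array's median was subtracted. At an unadjusted p under 0.05, limma counted 20 members, 39.2%, against 20.7% of all genes. Without the array labelled alpha replicate 2 and that labelled Pdx1-deficient replicate 1, 8 members passed, 15.7% of the 51, against 7.15% of all genes.

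The promoters of the 3 lower genes are shown because each gene passed the threshold in the same direction. Shared regulation of these genes was not tested. Each window runs from 250 bases before to 50 after the transcription start in RefSeq on build GRCm38.p6, written along the gene's own strand. Capitals mark TGACG, the core of the cAMP response element that CREB proteins bind, where it was found on the printed strand. Adcy9 lies on the minus strand at chr16:4420449-4420748, with the core at position -24 from the start. Pde5a lies on the plus strand at chr3:122728908-122729207, with no such match. Pde8a lies on the plus strand at chr7:81213015-81213314, with the core at position -84.
Adcy9: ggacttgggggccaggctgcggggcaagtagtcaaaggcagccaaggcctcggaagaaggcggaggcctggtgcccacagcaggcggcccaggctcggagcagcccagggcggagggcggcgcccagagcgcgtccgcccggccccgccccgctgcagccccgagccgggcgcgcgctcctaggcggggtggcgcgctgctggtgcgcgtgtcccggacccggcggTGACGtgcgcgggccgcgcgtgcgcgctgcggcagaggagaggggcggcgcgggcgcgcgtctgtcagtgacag
Pde5a: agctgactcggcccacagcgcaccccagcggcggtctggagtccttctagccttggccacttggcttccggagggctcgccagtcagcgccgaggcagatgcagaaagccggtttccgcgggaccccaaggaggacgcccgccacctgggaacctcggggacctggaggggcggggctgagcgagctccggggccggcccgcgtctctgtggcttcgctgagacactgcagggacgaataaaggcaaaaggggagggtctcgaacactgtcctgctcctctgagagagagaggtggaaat
Pde8a: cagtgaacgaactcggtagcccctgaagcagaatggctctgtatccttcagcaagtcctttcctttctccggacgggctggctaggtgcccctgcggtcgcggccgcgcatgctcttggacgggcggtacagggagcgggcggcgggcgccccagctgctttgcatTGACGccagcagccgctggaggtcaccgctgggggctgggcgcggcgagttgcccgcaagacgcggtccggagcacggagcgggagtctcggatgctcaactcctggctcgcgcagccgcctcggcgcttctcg
This core, on either strand (TGACG or CGTCA), stood in 24.1% of 79 windows of 40 members and in 20.8% of all 32851 windows. The full palindrome TGACGTCA stood in 2.53% of the member windows, both of them overlapping windows of Prkar1a, and in 1.79% of all windows. TAATTA, the core that homeodomain factors such as Pdx1 bind, stood in 2.53% of the member windows, those of Pde7b and Gucy2g, against 5.29% of all. Each TGACGTCA also counts as a core. A match in letters is not a measured binding site, and 2 windows of Prkg1 held none of the 3 motifs.

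Pde5a, which degrades cGMP and is the target of sildenafil, had the largest difference of any member. It read 6.96, 7.91, 6.17, 7.06 and 6.94 in alpha replicates 1 to 5, against 8.98, 9.95, 9.43, 9.92 and 8.09 in beta replicates 1 to 5. Every alpha array lay below every beta array, and beta replicate 5 was the lowest of its group. Alpha minus beta was -2.26 ± 0.48 on the log2 scale (SE, limma adjusted p = 0.0194), and a two-sided exact permutation test gave p = 0.00794, the smallest that 5 against 5 arrays allow. Leaving out beta replicate 4 or alpha replicate 3 gave limma adjusted p-values of 0.0514 and 0.056. Because each array reads a whole cell sample, fewer cells of a type and less RNA per cell cannot be told apart, here or for any member.

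Adcy9, a widely expressed adenylyl cyclase, read 7.23, 7.50, 7.01, 7.14 and 7.05 in alpha arrays, against 7.99, 7.76, 8.04, 7.58 and 7.50 in beta arrays. Alpha replicate 2 and beta replicate 5 held the same value, and all other alpha arrays lay below all beta arrays. The difference of -0.59 ± 0.12 (SE, limma adjusted p = 0.0167) kept an adjusted p under 0.05 whichever of the 15 arrays was left out, with a range of 0.00387 to 0.0492.

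Pde8a, a cAMP phosphodiesterase that common inhibitors such as IBMX do not block, read 7.68, 8.70, 7.76, 8.17 and 8.37 in alpha arrays. Beta arrays read 9.26, 8.93, 8.98, 9.09 and 8.58. All but alpha replicate 2 lay below the whole beta group. The difference was -0.83 ± 0.18 (SE, limma adjusted p = 0.0206), and without beta replicate 1, beta replicate 4 or alpha replicate 3 the limma adjusted p was 0.0569, 0.0514 or 0.0581. With replicate number as a block in the fit, the limma adjusted p was 0.0506.

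Prkg1, the kinase through which cGMP relaxes smooth muscle, read 6.24, 5.49, 6.15, 6.44 and 6.96 in alpha arrays, against 5.41, 5.54, 5.53, 5.52 and 5.11 in beta arrays. Replicate 2 lay among the beta arrays and the other 4 alpha arrays above all of them. Alpha minus beta was 0.83 ± 0.20 (SE, limma adjusted p = 0.0356). This call was lost in 9 of the 15 fits with 1 array left out, those without any 1 of the beta arrays or without alpha replicate 1, 3, 4 or 5, at limma adjusted p-values of 0.0502 to 0.0829. It was also lost after a further quantile normalization (limma adjusted p = 0.0628) and with only the 2 groups in the fit (limma adjusted p = 0.0679). With replicate number as a block in the fit, the call was lost too (limma adjusted p = 0.0506). Without alpha replicate 2 the difference was 1.02 (limma adjusted p = 0.00205). Without alpha replicate 5, the highest array for Prkg1 and the one with high acinar markers, it was 0.66 (limma adjusted p = 0.0655).

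Stromal and smooth muscle markers were set beside Prkg1, since it is abundant in smooth muscle. Their mean over 9 genes was 5.60 to 6.32 in alpha, against 5.53 to 5.77 in beta arrays, with alpha replicate 2 the lowest of its group. Of the 9 markers, 1 passed the test, the pericyte gene Rgs5, at 6.22, 5.33, 6.53, 5.74 and 7.11 in alpha and 4.98 to 5.30 in beta arrays. The matrix gene Sparc read 5.63 to 8.38 in alpha and 5.48 to 6.36 in beta arrays, whereas the smooth muscle actin gene Acta2 read 4.99 to 5.27 in alpha and 4.90 to 5.28 in beta arrays. No list member can read 0 on this scale, where the lowest signals are background. The part of these cells in the Prkg1 signal was not tested.

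**Figure D1:**
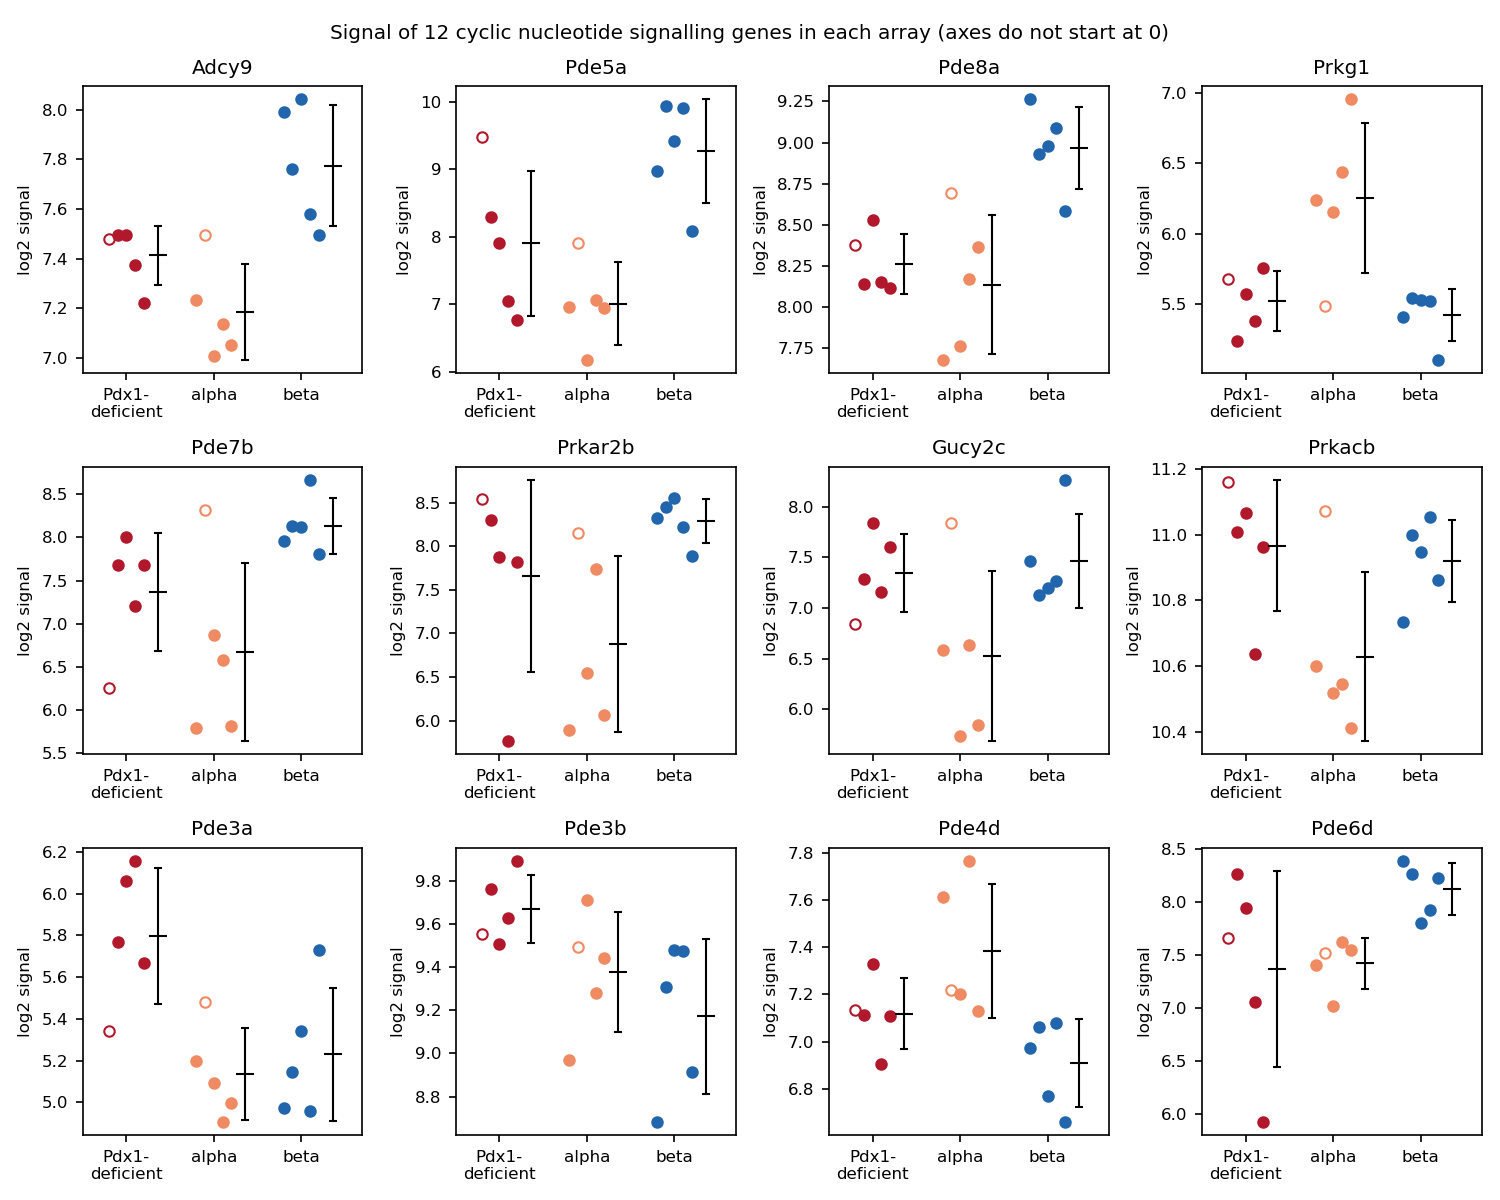
Log2 signal (vertical axes, each with its own range) of 12 members in each array, by group, with the group mean and SD as a black bar (n = 5) and open circles for Pdx1-deficient replicate 1 and alpha replicate 2. Pde5a alpha arrays lie at 6.17 to 7.91, below the beta arrays at 8.09 to 9.95, and 4 of the 5 Prkg1 alpha arrays lie above every beta array.

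With all arrays a further 4 members missed the alpha against beta threshold, but passed it without the 2 arrays that stand apart and without alpha replicate 2 alone, all of them lower in alpha cells. Alpha replicate 2 was the highest alpha array for each of the 4, so leaving it out necessarily widened the difference. Pde7b, a cAMP phosphodiesterase, read 5.79, 8.31, 6.87, 6.59 and 5.82 in alpha arrays, against 7.96, 8.13, 8.11, 8.66 and 7.81 in beta arrays. Replicate 2 was within the beta range and the other 4 alpha arrays below it. The difference was -1.46 ± 0.42 with all arrays (SE, limma adjusted p = 0.0653) and -1.87 without the 2 arrays (limma adjusted p = 0.000802). It also passed without Pdx1-deficient replicate 1 alone, which changes only the shared spread (limma adjusted p = 0.048), with array medians subtracted (limma adjusted p = 0.0484) and with array weights (limma adjusted p = 0.0244).

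Prkar2b, the RII-beta regulatory subunit that holds protein kinase A inactive until cAMP binds, read 5.90, 8.15, 6.54, 7.74 and 6.07 in alpha and 8.33, 8.45, 8.55, 8.22 and 7.89 in beta arrays. Alpha arrays spread over more than 2 log2 units. The difference of -1.41 ± 0.50 (SE, limma adjusted p = 0.128) became -1.72 without the 2 arrays (limma adjusted p = 0.0426), and the limma adjusted p was 0.0472 without Pdx1-deficient replicate 4 alone and 0.0356 with array weights.

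Gucy2c, the membrane cyclase that serves as receptor for guanylin and uroguanylin, read 6.59, 7.84, 5.73, 6.63 and 5.85 in alpha arrays. In beta arrays it read 7.47, 7.13, 7.20, 7.27 and 8.26. Only alpha replicate 2 overlapped the beta group. The difference was -0.94 ± 0.34 (SE, limma adjusted p = 0.139), and -1.27 without the 2 arrays (limma adjusted p = 0.0108).

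Prkacb, a catalytic subunit of protein kinase A, read 10.60, 11.07, 10.52, 10.55 and 10.41 in alpha and 10.74 to 11.05 in beta arrays. The alpha arrays other than replicate 2 were the 4 lowest of the 10. Alpha minus beta was -0.29 ± 0.13 (SE, limma adjusted p = 0.205), or -0.40 without the 2 arrays (limma adjusted p = 0.0318).

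Groups did not overlap for 3 members between alpha and beta cells, 5.88% of the 51, where 6.34% of all genes did not overlap. These were Pde5a, Pde4d and Pde6d. Pde4d, a cAMP phosphodiesterase blocked by rolipram, read 7.61, 7.22, 7.20, 7.76 and 7.13 in alpha arrays, against 6.97, 7.06, 6.77, 7.08 and 6.66 in beta arrays. Its difference of 0.48 ± 0.13 had a limma adjusted p of 0.0566, and 0.0408 without alpha replicate 2. Pde4d was read by 3 clusters: another averaged 7.42 ± 0.63 in alpha and 5.74 ± 0.93 in beta arrays, and the other 6.05 ± 0.45 in alpha and 5.79 ± 0.50 in beta arrays (SD, n = 5 each). With the mean of the 3 clusters, alpha minus beta was 0.80 (limma adjusted p = 0.0219).

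Pde6d is named for the photoreceptor phosphodiesterase, but its product carries prenylated proteins and does not cut cGMP. It read 7.40, 7.51, 7.02, 7.62 and 7.54 in alpha arrays, against 8.39, 8.27, 7.80, 7.92 and 8.22 in beta arrays, a narrow gap between the groups. The difference was -0.70 ± 0.33 (SE, limma adjusted p = 0.238). With only the 2 groups in the fit, the limma adjusted p was 0.0283.

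In Pdx1-deficient cells no member passed the test against beta cells. The largest differences were negative ones of Pde5a, Pde7b, Pde6d and Pde8a. The groups did not overlap for Pde8a, lower, and for Pde3b and Pde1a, higher. By limma, 0 of the 51 members and 217 of all genes (1.09%) had an adjusted p under 0.05. The split of all called genes was 14.7% higher, or 4.23% with array medians subtracted. At an unadjusted p under 0.05, limma counted 14 members, 27.5% of the 51, where 21.8% of all genes were past it. Without the 2 arrays that stand apart, 3 members passed, 5.88% of the 51, against 3.14% of all genes. These were Pde3a, higher, and Pde5a and Pde8a, lower. Pdx1 itself, the deleted gene and not a member, missed the threshold here with all arrays. It passed in 4 of the 25 alternatives, among them the fit without Pdx1-deficient replicate 1 (difference -1.74, limma adjusted p = 0.00617). For alpha minus beta Pdx1 passed, a call lost in 14 of the 25.

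Pde5a read 9.48, 8.30, 7.91, 7.05 and 6.77 in Pdx1-deficient replicates 1 to 5, against 8.09 to 9.95 in beta arrays. Replicates 1 and 2 were within the beta range, and the other 3 below it. Pdx1-deficient minus beta was -1.37 ± 0.48 (SE, limma adjusted p = 0.138). Without replicate 1 it was -1.77 (limma adjusted p = 0.0426).

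Pde8a read 8.38, 8.14, 8.53, 8.15 and 8.12 in Pdx1-deficient arrays, against 8.58 to 9.26 in beta arrays. Every Pdx1-deficient array, replicate 1 included, lay below every beta array. The difference of -0.70 ± 0.18 had a limma adjusted p of 0.0662 and an exact permutation p of 0.00794. The adjusted p was 0.0353 without the 2 arrays, 0.0421 without alpha replicate 2 alone and 0.0395 with array medians subtracted.

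Pde7b differed by -0.77 ± 0.42 between Pdx1-deficient and beta arrays (SE, limma adjusted p = 0.287), and by -0.49 without Pdx1-deficient replicate 1. Pde6d read 7.66, 8.26, 7.94, 7.05 and 5.92 in Pdx1-deficient arrays, against 7.80 to 8.39 in beta arrays, a difference of -0.75 ± 0.33 (SE, limma adjusted p = 0.201). For Pde6d it was -0.39 without Pdx1-deficient replicate 5, its lowest array.

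Adcy9 read 7.48, 7.50, 7.50, 7.38 and 7.22 in Pdx1-deficient arrays, against 7.50 to 8.04 in beta arrays. No Pdx1-deficient array read above the lowest beta array, and replicates 2 and 3 equalled it. The difference was -0.36 ± 0.12 (SE, limma adjusted p = 0.125).

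Pde3b is a cAMP phosphodiesterase that cGMP inhibits, and in beta cells it restrains insulin secretion. It read 9.55, 9.76, 9.51, 9.63 and 9.89 in Pdx1-deficient arrays, against 8.68, 9.31, 9.48, 9.47 and 8.91 in beta arrays. The groups did not overlap, by a margin of under 0.1 log2 unit. The difference was 0.50 ± 0.17 (SE, limma adjusted p = 0.124). Its relative Pde3a, known from heart muscle and oocytes, read 5.34, 5.77, 6.06, 6.16 and 5.67 in Pdx1-deficient arrays, against 4.97, 5.15, 5.34, 4.96 and 5.73 in beta arrays. Beta replicate 5 lay inside the Pdx1-deficient range, and beta replicate 3 equalled its lowest array, replicate 1. Here the difference was 0.57 ± 0.17 with all arrays (SE, limma adjusted p = 0.103) and 0.68 without the 2 arrays (limma adjusted p = 0.0384).

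Pde1a, which calcium and calmodulin activate, read 4.18, 4.04, 5.88, 4.27 and 4.47 in Pdx1-deficient arrays and 3.86 to 4.02 in beta arrays. Replicate 3 stood far above the rest, and all 3 group means were below 4.68, the mean over arrays of the 25th percentile of all 35556 probe clusters rather than of the genes alone. Such a gene is dim, and its signal may be background. Pdx1-deficient minus beta was 0.63 ± 0.28 (SE, limma adjusted p = 0.207), and 0.31 without replicate 3. Of the members 5 were dim by this rule, 9.80%, against 16.6% of all genes, and 46 were not.

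The count of members with no overlap between Pdx1-deficient and beta arrays, 3 of 51 or 5.88%, lay near the 5.96% of all genes. The 4 regulatory subunit genes of protein kinase A all had negative differences here and in alpha minus beta, under every scaling tried, and none passed the test. With 1 array left out, Prkar2a alone turned positive in alpha minus beta, at most to 0.02. Their median was -0.43 for Pdx1-deficient minus beta and -0.27 for alpha minus beta, where the medians of all genes were 0.06 and 0.04. Without Pdx1-deficient replicate 4, the array lowest for Prkar2b, the first median was -0.18. Prkar1b, which encodes the RI-beta subunit, read 7.78, 7.04, 7.29, 7.56 and 6.55 in Pdx1-deficient arrays, against 8.01, 7.64, 8.12, 7.49 and 8.18 in beta arrays. Its groups overlapped in replicates 1 and 4 of the Pdx1-deficient cells, and the difference was -0.64 ± 0.20 (SE, limma adjusted p = 0.114). Prkar2b read 8.54, 8.30, 7.88, 5.77 and 7.82 in Pdx1-deficient arrays, of which only replicate 4 was far below the beta range of 7.89 to 8.55.

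**Figure D2:**
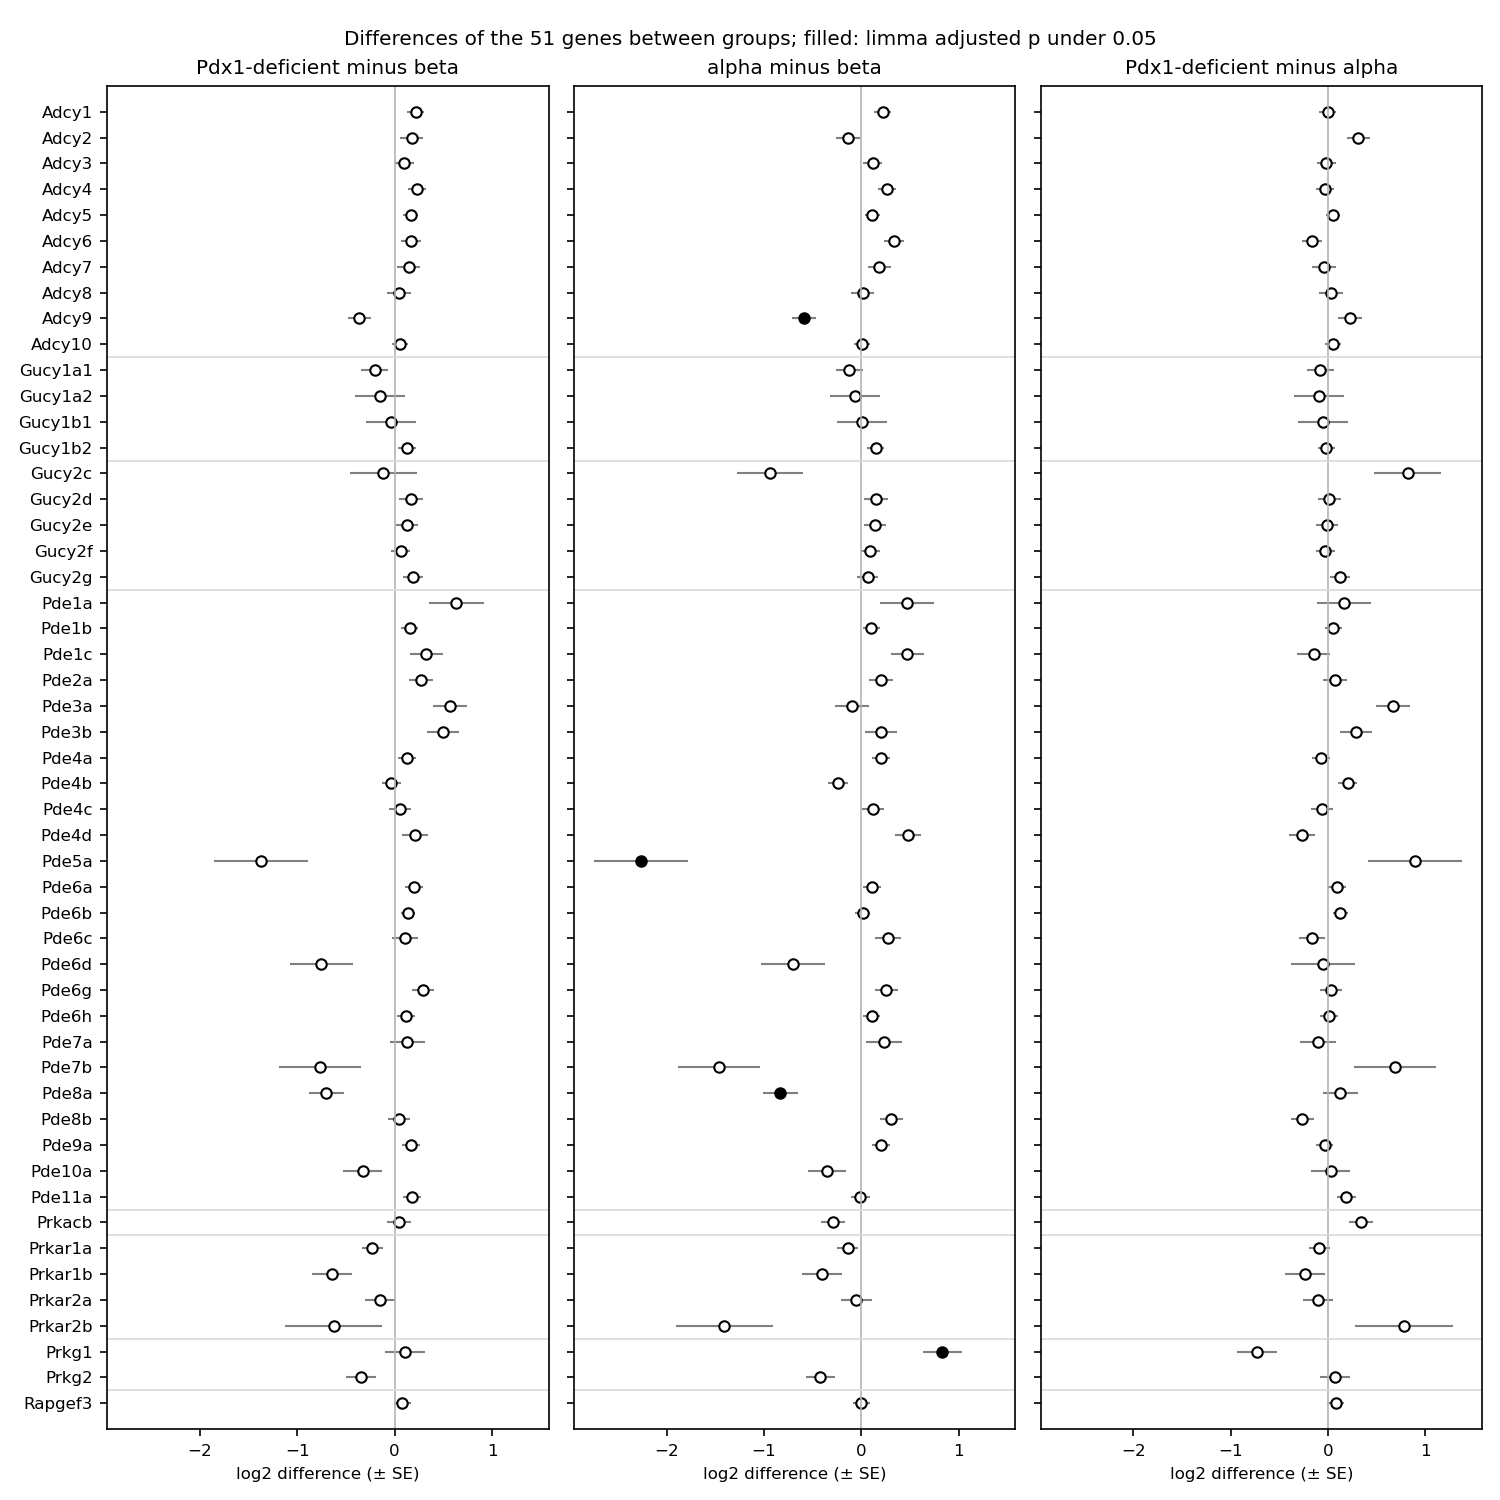
Log2 difference (horizontal axes) of each of the 51 members, one row per gene in order of role, with SE as a grey bar, for Pdx1-deficient minus beta, alpha minus beta and Pdx1-deficient minus alpha. Filled points have a limma adjusted p under 0.05: Adcy9, Pde5a, Pde8a and Prkg1 for alpha minus beta, and no point in the other panels.

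Pdx1-deficient cells were also set against alpha cells. No member passed, and neither did any other gene: limma called 0 of the 51 members and 0.0% of all genes, and 6 members (11.8%) and 6.0% of all genes had an unadjusted p under 0.05. No member kept its groups apart, where 0.637% of all genes did. Without the 2 arrays that stand apart, 4 members passed, 7.84% of the 51, against 0.888% of all genes. Of these, Gucy2c, Pde3a and Pde7b were higher and Prkg1 lower in Pdx1-deficient cells.

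Prkg1 read 5.68, 5.24, 5.57, 5.38 and 5.76 in Pdx1-deficient arrays, close to the beta range, against 5.49 to 6.96 in alpha arrays. The difference was -0.73 ± 0.20 with all arrays (SE, limma adjusted p = 0.39) and -0.96 without the 2 arrays (limma adjusted p = 0.0197). Without alpha replicate 2 alone the limma adjusted p was 0.0147. The stromal marker mean was 5.77 to 6.03 in Pdx1-deficient and 5.60 to 6.32 in alpha arrays.

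Pde3a, with the Pdx1-deficient values above, read 5.20, 5.48, 5.09, 4.91 and 5.00 in alpha arrays. Only Pdx1-deficient replicate 1 fell inside the alpha range. Pdx1-deficient minus alpha was 0.66 ± 0.17 (SE, limma adjusted p = 0.36), or 0.86 without the 2 arrays (limma adjusted p = 0.0283).

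Pde7b read 6.25 in Pdx1-deficient replicate 1, 7.68 in replicates 2 and 5, 7.20 in replicate 4 and its highest signal in replicate 3, against 5.79 to 8.31 in alpha arrays. Replicate 1, which sat with the beta arrays for Pdx1, was the lowest Pdx1-deficient array for Pde7b. With all arrays the Pde7b difference was 0.69, at an unadjusted limma p above 0.05. It became 1.38 once the 2 arrays were left out (limma adjusted p = 0.023). These were the lowest Pdx1-deficient and the highest alpha array for Pde7b, and they were picked on markers in these same data.

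Gucy2c read 6.84, 7.29, 7.84, 7.16 and 7.60 in Pdx1-deficient arrays, mostly within the beta range of 7.13 to 8.26, against 5.73 to 7.84 in alpha arrays. Pdx1-deficient minus alpha was 0.82 ± 0.34 (SE, limma adjusted p = 0.769), or 1.27 without the 2 arrays (limma adjusted p = 0.0485). Prkacb read 10.64 to 11.16 in Pdx1-deficient arrays, with replicate 4 the lowest, and the difference from alpha arrays was 0.34 ± 0.13 (SE, limma adjusted p = 0.672).

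**Figure D3:**
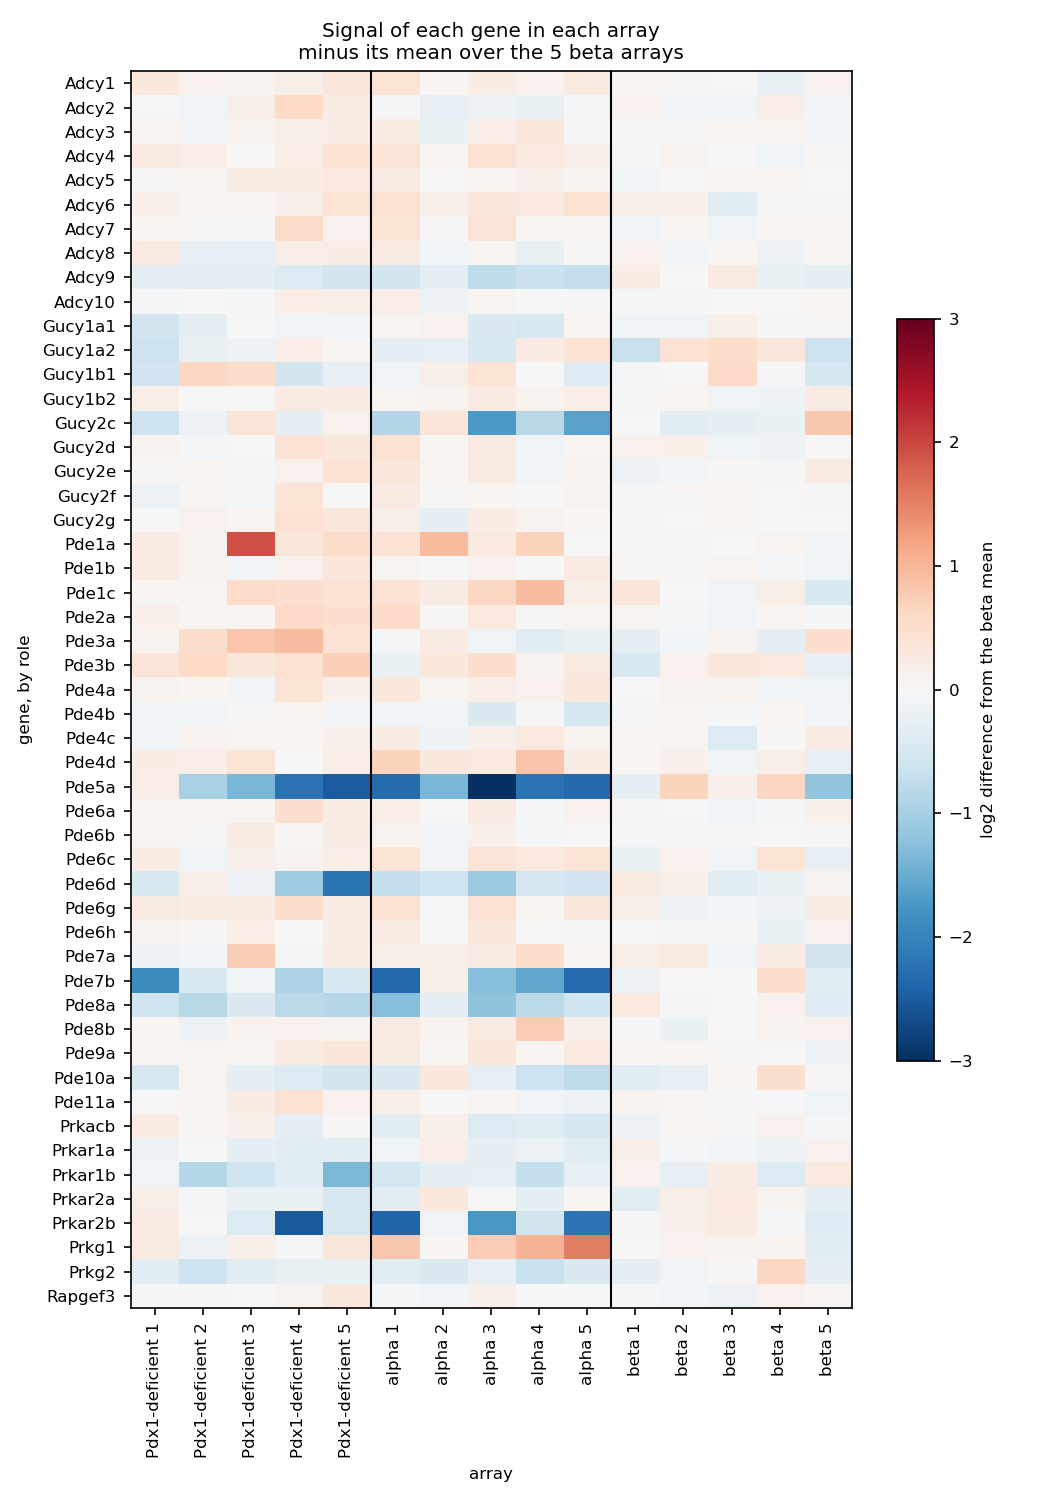
Colour gives the log2 signal of each member (rows, by role) in each of the 15 arrays (columns) minus the gene's mean over the 5 beta arrays. The darkest rows are Pde5a, Pde7b and Prkar2b, with low signals in alpha replicates 1, 3 and 5, and alpha replicate 2 is paler than the other alpha arrays in these rows.

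By role, the adenylyl cyclases other than Adcy9 differed little between groups. In Pdx1-deficient minus beta the 10 genes ran from -0.36 to 0.23, and in alpha minus beta from -0.59 to 0.33. Adcy6, one of the cyclases that calcium inhibits, read 7.97, 7.90, 7.88, 7.97 and 8.22 in Pdx1-deficient, 8.28, 7.97, 8.13, 8.10 and 8.26 in alpha and 7.97, 7.97, 7.51, 7.77 and 7.85 in beta arrays. Its alpha minus beta difference of 0.33 ± 0.10 had a limma adjusted p of 0.0795, and 0.0462 without alpha replicate 2. Adcy4 and Adcy1 were 0.26 ± 0.09 and 0.22 ± 0.09 higher on average in alpha than in beta arrays, at limma adjusted p-values of 0.127 and 0.177. Of the 10, 9 had a positive difference for Pdx1-deficient minus beta, but 7 with array medians subtracted and 6 after a further quantile normalization.

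Adcy2 had its largest difference between Pdx1-deficient and alpha arrays, at 0.31 ± 0.12 (SE, limma adjusted p = 0.712). The calcium-stimulated cyclase Adcy8 and the bicarbonate-stimulated cyclase Adcy10 differed by 0.06 or less in all 3 comparisons and were dim in every group. Adcy3, Adcy5 and Adcy7 had differences of -0.04 to 0.18.

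Soluble guanylyl cyclase, the nitric oxide receptor, is a pair of an alpha and a beta subunit. None of its 4 genes passed in any comparison, and the largest difference was that of Gucy1a1, at -0.20 for Pdx1-deficient minus beta. Gucy1a1 averaged 5.65 ± 0.22 in Pdx1-deficient, 5.73 ± 0.30 in alpha and 5.85 ± 0.13 in beta arrays (SD, n = 5 each). Gucy1b1, the usual partner of Gucy1a1, averaged 4.89 ± 0.59 in Pdx1-deficient, 4.94 ± 0.30 in alpha and 4.93 ± 0.39 in beta arrays. Among the membrane cyclases other than Gucy2c, the differences of Gucy2d, Gucy2e, Gucy2f and Gucy2g ran from -0.03 to 0.19, and Gucy2f was dim.

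The phosphodiesterases spread the most of all the roles. Their 24 differences ran from -1.37 to 0.63 for Pdx1-deficient minus beta, from -2.26 to 0.48 for alpha minus beta and from -0.27 to 0.89 for Pdx1-deficient minus alpha. Differences of at least 1 log2 unit were found for Pde5a between Pdx1-deficient and beta arrays (1.96% of the 51 members, against 1.23% of all genes). Between alpha and beta arrays they were found for Pde5a, Pde7b and Prkar2b (5.88% of members, against 2.19%). Between Pdx1-deficient and alpha arrays no member reached 1, where 0.742% of all genes did.

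Pde1c, a calmodulin-activated phosphodiesterase known from beta cells, averaged 7.06 ± 0.23 in Pdx1-deficient, 7.20 ± 0.30 in alpha and 6.73 ± 0.32 in beta arrays (SD, n = 5 each). Its alpha minus beta difference was 0.47 ± 0.17 (SE, limma adjusted p = 0.134). Pde10a, which degrades both cyclic nucleotides, averaged 7.47 ± 0.26 in Pdx1-deficient, 7.44 ± 0.42 in alpha and 7.79 ± 0.32 in beta arrays. Pde8b, the paralogue of Pde8a, did not share its direction in alpha minus beta, at 0.31 ± 0.12 (SE, limma adjusted p = 0.149) against -0.83 for Pde8a. Likewise Pde7a differed by 0.24 in alpha minus beta, against -1.46 for its paralogue Pde7b.

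Pde2a, which cGMP stimulates, differed by 0.27 for Pdx1-deficient minus beta (limma adjusted p = 0.219). The rolipram-sensitive genes Pde4a, Pde4b and Pde4c ran from -0.24 to 0.20 over the 3 comparisons. The cGMP-specific Pde9a differed by 0.20 for alpha minus beta (limma adjusted p = 0.219), and Pde11a by 0.19 for Pdx1-deficient minus alpha. The photoreceptor genes Pde6a, Pde6b, Pde6c, Pde6g and Pde6h, whose products work in rods and cones, ran from -0.17 to 0.29. Pde6c was dim.

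Of the kinases and exchange factors, Prkg2, the second protein kinase G gene, averaged 4.63 ± 0.16 in Pdx1-deficient, 4.56 ± 0.16 in alpha and 4.98 ± 0.37 in beta arrays (SD, n = 5 each). A second cluster of this gene averaged 3.87 ± 0.06 in Pdx1-deficient, 3.75 ± 0.20 in alpha and 4.32 ± 0.46 in beta arrays. Its differences from beta arrays were -0.35 for Pdx1-deficient and -0.42 for alpha cells (limma adjusted p = 0.207 and 0.136). Prkar1a, the RI-alpha subunit gene, averaged 9.53 ± 0.14 in Pdx1-deficient, 9.62 ± 0.21 in alpha and 9.75 ± 0.15 in beta arrays. Prkar2a, the RII-alpha subunit gene, averaged 7.02 ± 0.24 in Pdx1-deficient, 7.12 ± 0.27 in alpha and 7.17 ± 0.27 in beta arrays. Rapgef3, which encodes EPAC1, had a largest difference of 0.08 (5.64 ± 0.15 in Pdx1-deficient, 5.56 ± 0.09 in alpha and 5.57 ± 0.12 in beta arrays).

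Over the whole set the median difference was 0.11 for Pdx1-deficient minus beta, 0.09 for alpha minus beta and 0.01 for Pdx1-deficient minus alpha. The medians of all genes were 0.06, 0.04 and 0.02. Of the 51 members, 35 had a positive Pdx1-deficient minus beta difference, 68.6%, against 60.8% of all genes, but 28 did with array medians subtracted and 24 after a further quantile normalization. Comparisons that share the beta or the alpha arrays are not independent, and their values stand side by side only.

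Other genes of the pathway were read from lists of receptors, G proteins, anchors, transcription factors and targets. Nr4a2, a nuclear receptor gene that cAMP and other signals induce within minutes to hours, was higher in both other groups than in beta cells. It read 8.01, 8.36, 8.95, 9.61 and 8.95 in Pdx1-deficient, 9.10, 8.32, 9.58, 9.65 and 8.48 in alpha and 6.95, 8.03, 7.45, 7.26 and 6.97 in beta arrays. Alpha and beta arrays did not overlap, and Pdx1-deficient replicate 1 fell just below the highest beta array. Pdx1-deficient minus beta was 1.44 ± 0.32 (SE, limma adjusted p = 0.0472) and alpha minus beta 1.70 ± 0.32 (SE, limma adjusted p = 0.0121). The alpha call held in all 15 fits with 1 array left out. The Pdx1-deficient call held in 6, and was lost without any 1 of Pdx1-deficient replicates 2 to 5, alpha replicate 1 or beta replicates 1, 3, 4 and 5, at limma adjusted p-values of 0.0583 to 0.12. It was also lost with array weights, with only 2 groups, after a further quantile normalization and with trended robust moderation, at limma adjusted p-values of 0.0505 to 0.0846. With replicate number as a block in the fit, the limma adjusted p was 0.0681. Nr4a2 is 1 of the 11 cAMP-responsive genes on this list, or 9.09%, against 1.09% and 4.04% of all genes called in these comparisons. No other gene of the list passed in any comparison. Rgs2 went the other way, averaging 10.72 in Pdx1-deficient, 10.38 in alpha and 11.32 in beta arrays. The list's medians were 0.25 for Pdx1-deficient minus beta and 0.31 for alpha minus beta. These genes also respond to cell isolation, whose part was not tested.

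Of the Gs- and Gi-coupled receptors, 19 of 25 were measured, and 1 passed, in alpha minus beta. This is 5.26% of them, near the 4.04% of all genes called there. Sstr3, a Gi-coupled somatostatin receptor, read 7.33, 7.69, 7.39, 7.27 and 7.76 in alpha arrays, against 8.40, 7.83, 7.96, 8.04 and 8.04 in beta arrays. The groups were apart by less than 0.1, and alpha minus beta was -0.57 ± 0.12 (SE, limma adjusted p = 0.0169). Glp1r, the Gs-coupled incretin receptor that feeds cAMP in beta cells, read 10.13, 8.26, 8.13, 6.95 and 7.51 in Pdx1-deficient, 8.52, 8.21, 8.07, 8.70 and 8.62 in alpha and 9.69, 9.69, 10.05, 9.93 and 9.90 in beta arrays. Every alpha array and every Pdx1-deficient array but replicate 1 lay below the beta arrays. Pdx1-deficient minus beta was -1.66 ± 0.41 and alpha minus beta -1.43 ± 0.41 (limma adjusted p = 0.0617 and 0.0638). Without the 2 arrays that stand apart they were -2.14 and -1.38 (limma adjusted p = 0.00256 and 0.0034).

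Of the 18 anchoring proteins and inhibitors of protein kinase A, 1 passed, in alpha minus beta, or 5.56%, near the 4.04% of all genes. Akap13, an anchor of protein kinase A, read 9.46, 9.20, 8.85, 9.48 and 9.18 in Pdx1-deficient, 8.47, 9.24, 8.09, 8.30 and 8.07 in alpha and 9.09, 9.14, 9.14, 9.27 and 9.48 in beta arrays. Replicate 2 lay within the beta range and the other 4 alpha arrays below it. Alpha minus beta was -0.79 ± 0.19 (SE, limma adjusted p = 0.035), a call that held in 6 of the 15 fits with 1 array left out. It was lost without any 1 of the beta arrays or of alpha replicates 1, 3, 4 and 5, at limma adjusted p-values of 0.0508 to 0.092, and after a further quantile normalization (limma adjusted p = 0.0684) or with only 2 groups (limma adjusted p = 0.0597). Pdx1-deficient minus beta was 0.01. Akap7 had the largest Pdx1-deficient minus beta difference of the list, -0.56 ± 0.19 (SE, limma adjusted p = 0.133).

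No gene passed in the 4 remaining lists, by limma in any of the 3 comparisons. Among 6 of 7 G protein alpha subunit genes measured, Gnai1, of the inhibitory class, read 7.87, 6.19, 7.59, 6.20 and 6.93 in Pdx1-deficient and 8.75, 6.90, 7.82, 8.93 and 8.83 in alpha arrays, a difference of -1.29 ± 0.42 (SE, limma adjusted p = 0.558, and 0.0287 without the 2 arrays). Among 11 genes of the CREB family, its coactivators and SIK kinases, Sik1, itself a target of CREB, differed by 0.65 ± 0.24 for Pdx1-deficient and 0.68 ± 0.24 for alpha minus beta (limma adjusted p = 0.147 and 0.122). Among 15 of 16 channels and other effectors, the channel subunit gene Cngb3 differed by -0.63 ± 0.65 for alpha minus beta (limma adjusted p = 0.595). Among 12 of 13 nitric oxide and natriuretic peptide genes, Nppa, which encodes atrial natriuretic peptide, was 0.37 ± 0.10 apart for Pdx1-deficient minus beta without overlap of the groups (limma adjusted p = 0.0876).

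Without the 2 arrays that stand apart, more list genes passed, among the 19, 6, 18, 11, 11, 15 and 12 measured in the 7 lists. Of all genes, 3.14% were then called for Pdx1-deficient minus beta, 7.15% for alpha minus beta and 0.888% for Pdx1-deficient minus alpha. For Pdx1-deficient minus beta the list genes were Glp1r, Ptger3, Nr4a1 and Nr4a2. For alpha minus beta they were Glp1r, Sstr2, Sstr3, Galr1, Akap12, Akap13, Nr4a2, Fosb and Rap1b, and for Pdx1-deficient minus alpha Gnai1, Akap12 and Akap13. Nr4a1, a relative of Nr4a2, was then 1.54 higher in Pdx1-deficient than in beta arrays (limma adjusted p = 0.021), and Ptger3, a prostaglandin receptor gene, 1.52 higher (limma adjusted p = 0.00963). Neither Nr4a1 nor Ptger3 passed with all arrays.

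**Figure D4:**
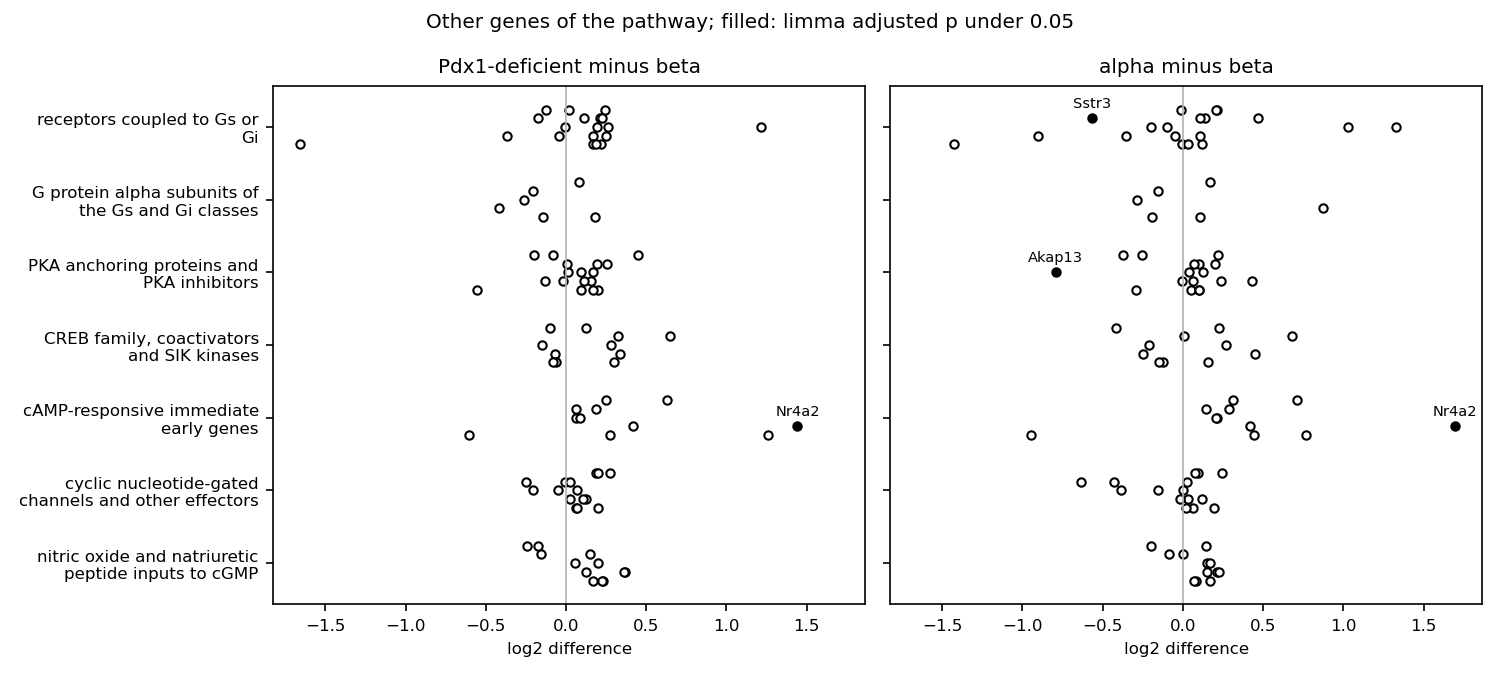
Log2 difference (horizontal axes) of each measured gene in 7 lists of the pathway, for Pdx1-deficient minus beta and alpha minus beta, with filled points for a limma adjusted p under 0.05. Nr4a2 is the only filled point on the left, at 1.44, and Nr4a2, Sstr3 and Akap13 are filled on the right, at 1.70, -0.57 and -0.79.

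**Figure D5:**
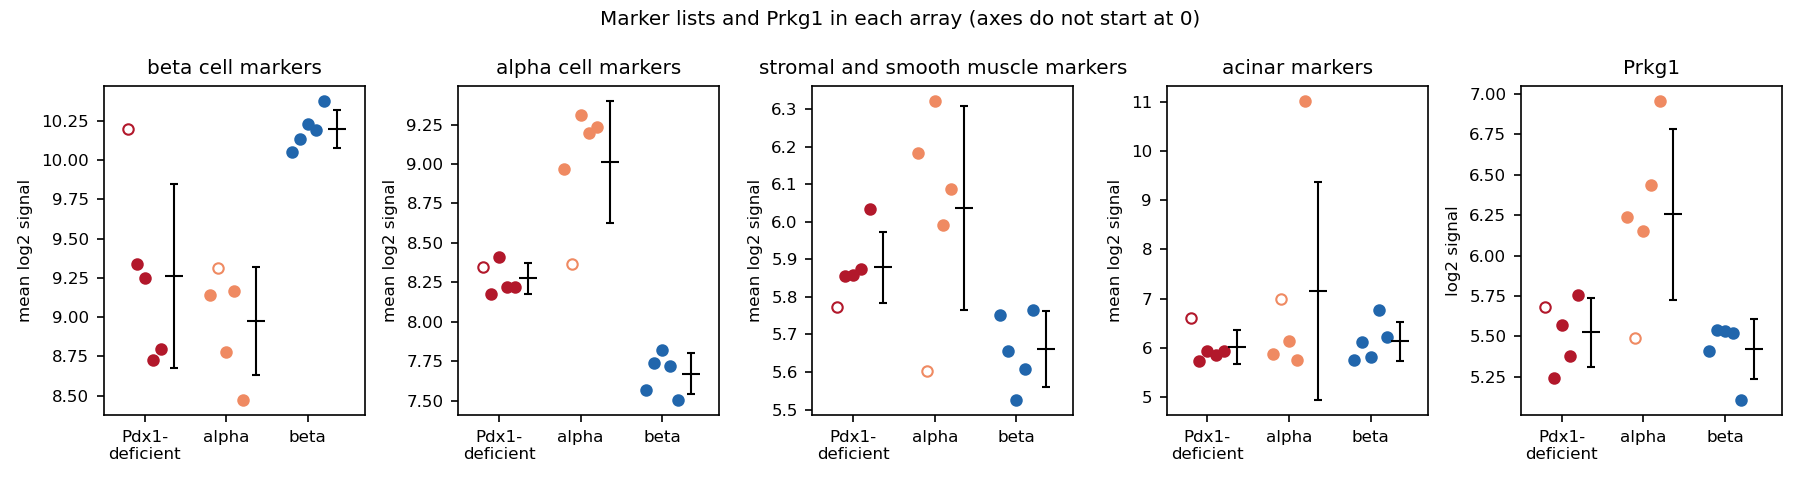
Mean log2 signal of 4 marker lists and the signal of Prkg1 (vertical axes, each with its own range) in each array, with the group mean and SD as a black bar (n = 5) and open circles for Pdx1-deficient replicate 1 and alpha replicate 2. In alpha arrays the stromal list spans 5.60 to 6.32, with replicate 2 lowest, as it is for Prkg1.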

How the data were processed

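Total RNA of each sample, 500 ng, was labelled and hybridised to Affymetrix Mouse Gene 1.0 ST arrays, per the labels. The authors made the deposited log2 values with Affymetrix Expression Console, per the submitters' processing notes. The sources used here name no version, summarization, background correction or build, and base 2 is read from the range. No value was missing, array medians ran from 5.88 to 6.05, and no arrays were identical.

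Of 35556 clusters, 21789 had 1 gene symbol, 1621 several and 12146 none. Where a gene had several single-symbol clusters, the one brightest on average was used, which gave 19938 genes. Groups were compared with limma 3.58.1 (lmFit, eBayes, R 4.3.3) in 1 fit of 3 group means over 15 arrays, with Benjamini-Hochberg adjustment over all genes, and with two-sided exact permutation tests over 252 splits. The fit was tested on simulated data. Members and lists were chosen with earlier results of these data known. Membership itself uses symbols only. Genes were described in full where they passed, where groups did not overlap, or where their difference was the largest of their role or list. The remaining members are given so that each is accounted for, and those described in full outside this rule, such as Pde3a and Prkar1b, were chosen after their values were seen. The number of arrays, 5 per group, limits precision. The alternatives tried were 3 scalings, a filter on dim genes, trended robust moderation, only 2 groups, a replicate block, the mean over clusters, array weights and arrays left out.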

Additional observations from a re-analysis of the deposited data

Results flagged for a closer look

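Dixon's test was applied to 96 groups of 5 arrays, and 7 had 1 array farther from the others than it allows. The groups were those of Pdx1 and of 31 members chosen for their differences in these same data. Chance gives about 1 in 20 among groups not chosen on their values, so that rate cannot judge this count. In Pdx1-deficient arrays, Adcy6 read 8.22 in replicate 5, where the others read 7.88 to 7.97. Pde1a read 5.88 in Pdx1-deficient replicate 3, where the others read 4.04 to 4.47. Pde6g read 5.99 in Pdx1-deficient replicate 4, where the others read 5.69 to 5.75. Prkar2b read 5.77 in the same array, below 7.82 to 8.54 in the others. Pde8b read 4.87 in Pdx1-deficient replicate 2, below 5.13 to 5.17 in the others. In alpha arrays, Pde8b read 5.80 in replicate 4, where the others read 5.15 to 5.32. Prkacb read 11.07 in alpha replicate 2, where the others read 10.41 to 10.60, and this is the array that stood apart over the alpha-cell markers. The causes were not tested.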

How the results depend on the processing

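The count of members past the threshold changed with the arrays in the fit. For Pdx1-deficient minus beta it was 0, and 1 with array medians subtracted, 1 with array weights, 3 without Pdx1-deficient replicate 1 and alpha replicate 2 together, and 0 to 2 with 1 array left out (2 without Pdx1-deficient replicate 1, 1 without alpha replicate 2). For alpha minus beta it was 4, and 7 with array weights, 8 without the 2 arrays, and 1 to 10 with 1 array left out (10 without alpha replicate 2, 2 without beta replicate 1, 1 without beta replicate 4 or alpha replicate 3). For Pdx1-deficient minus alpha it was 0, and 4 without the 2 arrays and 0 to 1 with 1 array left out (1 without alpha replicate 2). Over all genes, limma called 217 for Pdx1-deficient minus beta, with 0 to 548 when 1 array was left out and 8 to 626 under the other alternatives, among them 615 with array medians subtracted, 321 with medians over genes subtracted, 29 after a further quantile normalization, 89 with only 2 groups and 121 with trended robust moderation. It called 806 for alpha minus beta, with 328 to 1430 when 1 array was left out and 578 to 1425 otherwise, and 0 for Pdx1-deficient minus alpha, with 0 to 145 and 0 to 177. Subtracting medians over genes was chosen after seeing the data.

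Whether replicate numbers pair the arrays was not settled. Deviations of same-numbered arrays from their group means correlated at -0.172 to 0.221 for Pdx1-deficient and alpha arrays. They correlated at -0.12 to 0.114 for Pdx1-deficient and beta, and at 0.00504 to 0.224 for alpha and beta arrays. Arrays with different numbers were not compared, so these values cannot decide it. With the replicate block, 0, 3 and 0 members passed for Pdx1-deficient minus beta, alpha minus beta and Pdx1-deficient minus alpha; the 3 were Adcy9, Pde5a and Pde7b, Pde8a and Prkg1 both had a limma adjusted p of 0.0506 for alpha minus beta, Nr4a2 had one of 0.0681 for Pdx1-deficient minus beta, and the block called 8 and 633 genes in the first and second comparison.

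Among single differences, 1104 values under alternatives kept direction and side of the threshold, 36 gained and 32 lost the call, and 2 turned sign, both of Pdx1 for Pdx1-deficient minus alpha: -0.11 became 0.19 with array weights and 0.19 without Pdx1-deficient replicate 4, with a range of -0.45 to 0.19 over the 15 fits with 1 array left out. The cause was not tested. No signal-over-background flags were used, so dim members carry no detection call.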
